A study of Mus musculus with 12 samples.

Results

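Killer lectin-like receptors are the C-type lectin family by which natural killer (NK) cells read other cells, and the activating receptor Ncr1 (NKp46), of the immunoglobulin family, marks the same cells. The set described here held 10 genes, chosen by name from a family proposed with results of the survivin contrast in tumours already known: Klrb1a, Klrb1b, Klrb1c, Klrb1f, Klrc1, Klrd1, Klrk1, Klrg1, Klre1 and Ncr1. They are 10 of the 34844 gene names on the arrays and were read by 14 probes of 1 spot each. Of the 168 readings of these probes on 12 arrays, 116 were well above background by the scanner's flag. Of the 10 genes, 6 had a probe flagged well above background throughout at least 1 group of 3 arrays and could be compared with the other 26290 genes tested, a number that includes them; Klrb1c, Klrc1, Klrg1 and Klrk1 did not.

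NK cells are abundant in mouse liver, and in textbook accounts they kill by weighing inhibitory against activating receptors. Klrd1 (CD94) pairs with Klrc1 (NKG2A) to form an inhibitory receptor for the non-classical class I molecule Qa-1 (H2-T23), and Klrk1 (NKG2D) is the activating receptor for the stress ligands of the Raet1, H60 and Ulbp1 families. The Klrb1 (NKR-P1) receptors bind Clec2 proteins: Klrb1b is the inhibitory receptor for Clec2d (Clr-b), Klrb1f binds Clec2i (Clr-g), Klrb1a and Klrb1c (NK1.1) are activating forms. Klrg1 is an inhibitory receptor for cadherins, and Klre1 pairs with Klri1 or Klri2.

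The samples came from male mice labelled 129/SV/B6, given 50 mg/kg of N-nitrosodiethylamine (DEN, a liver carcinogen) at 2 weeks of age, irradiated and transplanted with bone marrow, treated with poly(IC) 8 months after DEN and killed 1 week later, which was 2 months after the transplant. Tumour (hepatocellular carcinoma, HCC) and non-cancerous liver were taken from mice labelled Mxcre- (wild type) and Mxcre+ (survivin-deleted), with 3 arrays in each of the 4 groups. Mx-Cre is a recombinase switched on by interferon, and thus by poly(IC), in liver and in blood cells, so NK cells are within its reach; the labels do not give the genotype of the marrow donors, nor whether each array is a separate animal. P-values therefore measure only the spread between these arrays, which may be technical. In bulk tissue fewer NK cells and less RNA per NK cell cannot be told apart. All values below are log2 signals relative to the 75th percentile of the array, so that 0 is the signal of that percentile.

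Replicate 1 of each group lay on slide 1, where that percentile was a signal of 1283 to 1958, and replicates 2 and 3 on slide 2, where it was 3639 to 4243. Birc5, the survivin gene, lay between -0.21 and 0.05 in survivin-deleted HCC and between 0.64 and 1.63 in wild-type HCC, but between -1.19 and 2.29 in survivin-deleted liver and between 0.40 and 2.67 in wild-type liver. The highest of the deleted livers was the array labelled replicate 1, which goes against its label. The deposited value table holds this array and the array labelled wild-type HCC replicate 1 under each other's names. The names of the scanner files are used throughout, and for Klrb1a and Klrb1b the values with the 2 arrays exchanged are given beside them.

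The 4 probes that read Klrb1a and Klrb1b carry the differences reported below, and Ncr1 is shown beside them as the receptor, of the 6 measured, whose group means were closest; the first 30 of the 60 bases of each probe are given. The Klrb1a probe covers chr6:128568515-128568574 (mm9, minus strand). The Klrb1b probes lie at chr6:128763847-128763906 for the brightest, chr6:128765040-128765099 for the second and chr6:128764397-128764456 for the third, all on the minus strand, and the Ncr1 probe at chr7:4296176-4296235 on the plus strand. The other members' probes all lie on chromosome 6 as well.
Klrb1a: ctttcacgtttctcaagtttccaacacttg
Klrb1b, the brightest probe: tctcccaaaggcaggaacttgacattgaca
Klrb1b, the second probe: cacatggactctgaaaacactgggattctt
Klrb1b, the third probe: ctaaaaatttgccaaactttccatgaaaat
Ncr1: atcatgaagaggccaacagattaacaaatt
Base composition differed among them, with 41.7% G or C in the Klrb1a probe and in the brightest Klrb1b probe, 36.7% in the second and 23.3% in the third. Whether these probes also bind transcripts of other Klrb1 genes was not tested, and exon positions are not given because no gene models of that build were used here.

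Klrb1a and Klrb1b were the members that separated wild-type tumour from wild-type liver. Klrb1a, an activating receptor, read -2.23, -2.35 and -2.75 in wild-type liver (replicates 1 to 3) and -1.18, -0.32 and -0.77 in wild-type HCC. Every tumour array was above every liver array. Group means were -2.44 ± 0.27 and -0.76 ± 0.43 (SD, n = 3), a difference of 1.69 (SE 0.41) or 3.22-fold. The brightest Klrb1b probe, for the inhibitory receptor of Clec2d, read 0.30, 0.40 and 0.32 in wild-type liver and 1.44, 2.04 and 1.72 in wild-type HCC. The 3 liver arrays lay within a narrow band and every tumour array lay above it. The means were 0.34 ± 0.05 and 1.74 ± 0.30 (SD, n = 3), a difference of 1.40 (SE 0.38) or 2.63-fold.

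Neither difference passed limma's test after Benjamini-Hochberg adjustment over 26290 genes (adjusted p = 1.00 for both; unadjusted p = 0.00185 for Klrb1a and 0.00374 for Klrb1b), and no gene in the whole contrast did (0%). By the exact permutation test, two-sided, each gave p = 0.1, the smallest that 3 against 3 arrays allow. At unadjusted p under 0.05, 2 of the 6 measured members were higher in wild-type HCC, where 0.844% of all genes tested were higher. Separated upward were 2 of 6, where 4.96% of all genes were, and 2.33% were separated downward. The wild-type HCC arrays were also part of the contrast with which the set was proposed, so these counts and p-values are a description. Within slides the direction was the same: Klrb1a differed by 1.04 on slide 1 and 2.01 on slide 2, and Klrb1b by 1.15 and 1.52. With the 2 arrays exchanged the groups were still separated: Klrb1a differed by 1.72 (SE 0.39), and Klrb1b averaged 1.84 in wild-type HCC against 0.34 in wild-type liver (SE of the difference 0.34). With the exchange and a slide term, limma's adjusted p was 0.299 for each.

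The other Klrb1b probes gave larger differences with wider spread. The second probe read -3.77, -1.20 and -1.41 in wild-type liver and -1.76, 1.01 and 0.62 in wild-type HCC, a difference of 2.08. The third read -3.85, -1.16 and -1.27 against -0.83, 0.60 and 0.38, a difference of 2.14. On both probes the liver array of slide 1 was the lowest of the 12 and was not well above background, so that reading, which enters the difference, is a bound. The second probe read lower on slide 1 than on slide 2 in every group, and its wild-type groups overlapped across slides, but on each slide the tumour arrays were the higher ones. With the 2 arrays exchanged the third probe's wild-type groups overlapped too, at a difference of 1.86. As labelled, all 3 Klrb1b probes and the Klrb1a probe were higher in wild-type HCC than in wild-type liver on the same slide.

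**Figure D1:**
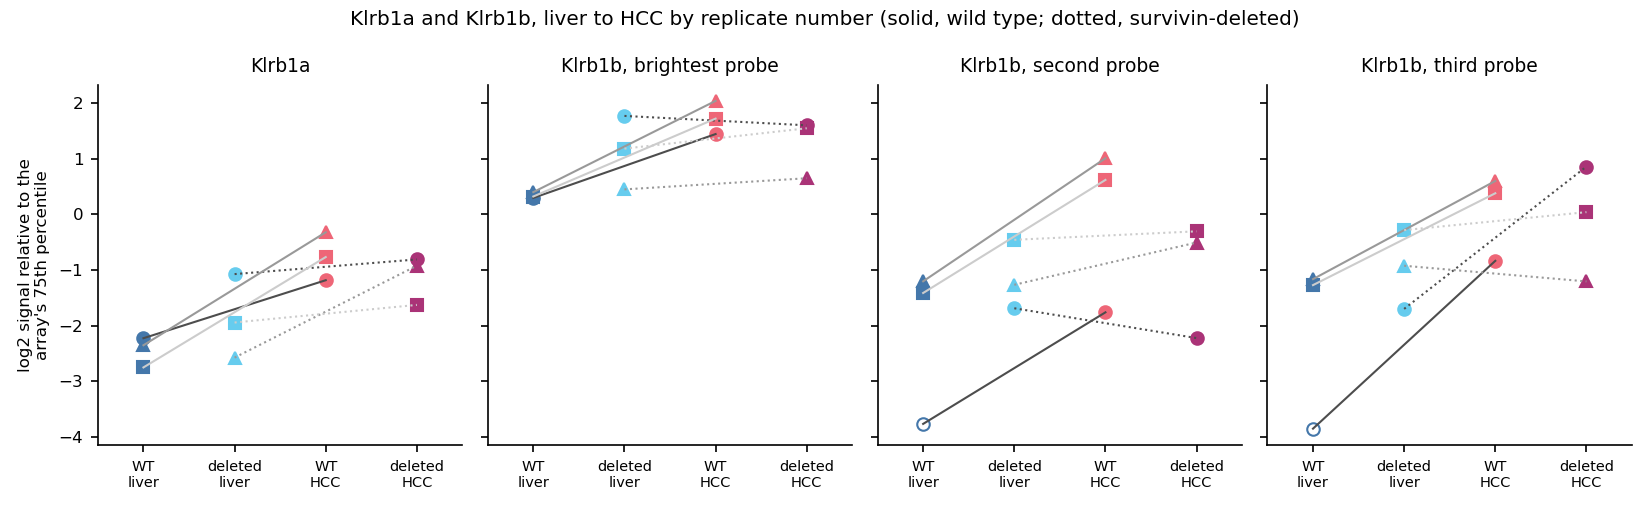
Klrb1a and the 3 Klrb1b probes on each array, as log2 signal relative to the array's 75th percentile, with circles for replicate 1 (slide 1), triangles for replicate 2 and squares for replicate 3, and open symbols for readings not well above background. Lines join arrays of the same replicate number from liver to HCC; they go up in 3 of 3 wild-type pairs for each probe, from -2.23 to -1.18 for Klrb1a on slide 1. The survivin-deleted lines are mixed: Klrb1a goes from -2.57 to -0.92 in replicate 2 and the third Klrb1b probe from -1.70 to 0.86 in replicate 1, while the brightest Klrb1b probe goes from 1.77 to 1.60 in replicate 1.

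With survivin deleted, the same comparison of tumour with liver gave smaller differences for Klrb1a and for the brightest Klrb1b probe. The size of that change is given with the deletion contrasts, as a description. Klrb1a read -1.07, -2.57 and -1.94 in survivin-deleted liver and -0.81, -0.92 and -1.63 in survivin-deleted HCC. The arrays overlapped, because replicate 1 of the deleted liver, an array in doubt, was above replicate 3 of the deleted HCC. The difference was 0.74 (SE 0.41, limma adjusted p = 1.00, unadjusted p = 0.0989). Klrb1b on its brightest probe read 1.77, 0.45 and 1.18 in deleted liver and 1.60, 0.65 and 1.55 in deleted HCC, a difference of 0.13 (SE 0.38), and the arrays overlapped. The second probe differed by 0.13 and the third by 0.87, of which 2.56 on slide 1 and 0.02 on slide 2, both with overlap. With the 2 arrays exchanged the differences were 0.78 for Klrb1a and 0.24, 0.15 and 0.58 for the 3 Klrb1b probes, with overlap. On slide 2 alone, with 2 arrays a group, Klrb1a was separated, by 0.98, as were 5780 of the 26290 genes tested upward and 4912 downward. As labelled, none of the 6 members was separated in either direction here, where 2.05% of all genes were separated upward and 2.47% downward. The survivin-deleted HCC arrays were also part of the contrast with which the set was proposed, so these values too are a description.

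Over both genotypes together, a comparison chosen after the values were seen, Klrb1a was higher in HCC by 1.21 (SE 0.29, limma unadjusted p = 0.00162) and Klrb1b by 0.76 (SE 0.27, unadjusted p = 0.0161), with adjusted p = 1.00 for both and 0.627 with a slide term. With the 2 arrays exchanged these differences were 1.25 (SE 0.28, adjusted p = 0.723) and 0.87 (SE 0.24, adjusted p = 0.765). These were 2 of 6 members, where 0.871% of all genes tested were higher at unadjusted p under 0.05. All HCC arrays were also part of the contrast with which the set was proposed, so these p-values and counts are a description. On slide 2, the 4 HCC arrays read -1.63 to -0.32 for Klrb1a and the 4 liver arrays -2.75 to -1.94, with no overlap, as for 3.18% of all genes. For Klrb1b they read 0.65 to 2.04 and 0.32 to 1.18, and overlapped.

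In non-cancerous liver, Klrb1b on its brightest probe read higher with survivin deleted. The deleted arrays, at 0.45 to 1.77, lay above the wild-type arrays, at 0.30 to 0.40, although the lowest deleted array was close to the highest wild-type one. The difference was 0.79 (SE 0.38, limma unadjusted p = 0.0607, adjusted p = 1.00), and with the 2 arrays exchanged 0.69 (SE 0.34). The other Klrb1b probes overlapped between these groups as labelled. The second read -1.69 to -0.46 in deleted and -3.77 to -1.20 in wild-type liver, a difference of 0.99, and the third -1.70 to -0.28 and -3.85 to -1.16, a difference of 1.13; with the 2 arrays exchanged the third was separated, the second was not. On the brightest probe the difference was 0.46 on slide 2 alone and 0.48 without the array labelled survivin-deleted liver replicate 1, so that array sets much of its size. Klrb1b was 1 of 6 members separated upward, where 6.86% of all genes were, and 2.88% were separated downward. For Klrb1a the difference was 0.58 (SE 0.41, limma unadjusted p = 0.188), or 0.54 with the exchange, and the arrays overlapped in both.

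In HCC, the contrast with which the set was proposed, both receptors were on average lower with survivin deleted, Klrb1a by -0.36 (SE 0.41) and Klrb1b by -0.47 (SE 0.38). As labelled the arrays overlapped in both cases. With the 2 arrays exchanged the differences were -0.40 (SE 0.39), with overlap, and -0.58 (SE 0.34). Every deleted array was then below every wild-type array for Klrb1b on its brightest probe, as for 791 of 26284 genes. On slide 2, with 2 arrays a group, Klrb1a (-0.73) and all 3 Klrb1b probes were lower without overlap. The Klrb1b differences were -0.78 for the brightest probe, -1.22 for the second and -1.07 for the third. With so few arrays, 5790 of the 26290 genes tested were also lower without overlap there, and 7245 were higher. On slide 1 as labelled Klrb1a was higher by 0.37, the brightest probe by 0.16 and the third by 1.70, and the second was lower, at -0.46. Over all 12 arrays as labelled, none of the 6 measured members was separated in this contrast, where 2.81% of all genes were separated upward and 2.80% downward, and nothing is read from that. The change with deletion in HCC minus that in liver was -1.26 for Klrb1b (SE 0.54) and -0.94 for Klrb1a (SE 0.58). That difference contains the contrast with which the set was proposed, so it is a description and no p-value is given for members. No gene passed limma's adjusted threshold in it (0%).

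**Figure D2:**
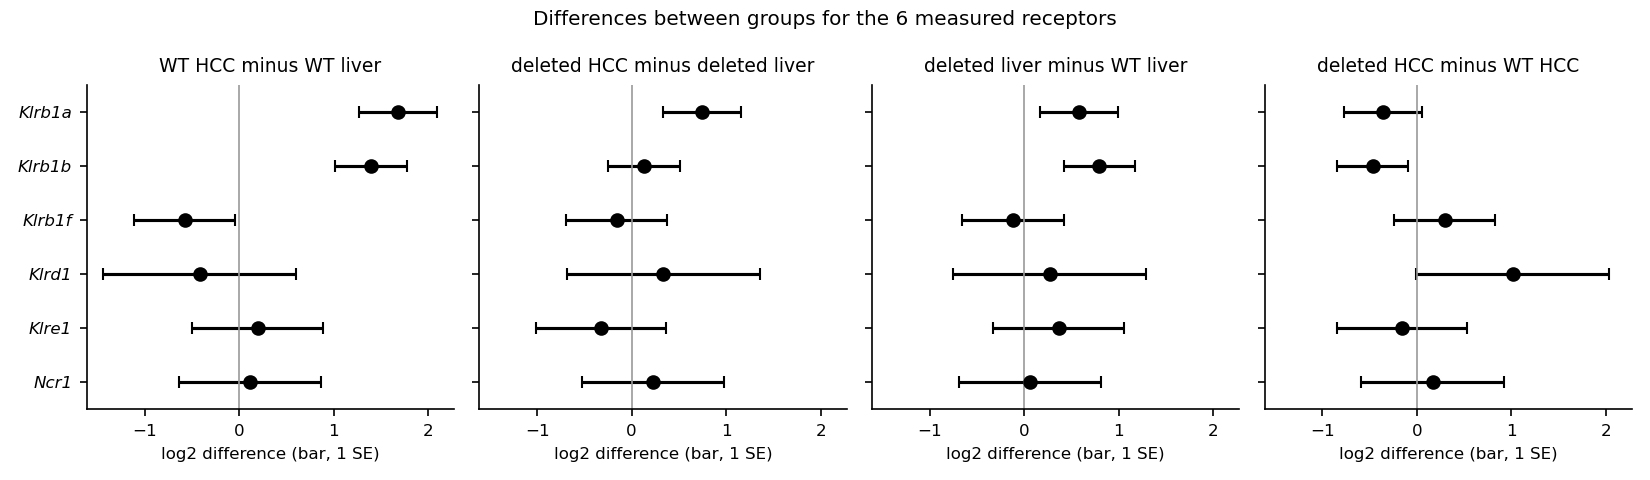
Log2 differences between groups for the 6 receptors measured, with points for the fitted difference and bars of 1 SE from the model over all 12 arrays. Klrb1a (1.69) and Klrb1b (1.40) are more than 3 SE from 0 in the comparison of wild-type HCC with wild-type liver; the differences of the other 4 receptors lie near or within 1 SE of 0.

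The other 4 measured receptors did not separate the groups in any of the 4 contrasts, arrays as labelled. Ncr1 read -2.69, -4.02 and -4.30 in wild-type liver and -2.38, -4.84 and -3.62 in survivin-deleted liver. In HCC it read -2.65, -3.29 and -4.72 in wild type and -2.37, -3.60 and -4.20 with deletion. The slide 1 array was the highest of each group, and the 4 group means lay between -3.67 and -3.39. The SD within groups, 0.86 to 1.23 (n = 3), includes that offset between slides, which is balanced over the groups. Ncr1 differed by 0.12 (SE 0.75) for wild-type HCC against liver and by 0.06 (SE 0.75) for deletion in liver. With a slide term the SE of each was 0.40.

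Klrd1, the CD94 chain, varied most among arrays of 1 group. It read -2.48, -4.08 and -5.44 in wild-type liver, and -1.68, -5.27 and -4.24 in survivin-deleted liver. In wild-type HCC it read -3.60, -3.45 and -6.18, the last not well above background, and in survivin-deleted HCC -3.20, -3.18 and -3.81. The deleted tumours were the most even group; 2 of them lay above every wild-type tumour, and 1 wild-type tumour lay below all of them. Differences were 1.02 (SE 1.02) for deletion in HCC, which was 0.37 with the 2 arrays exchanged, 0.27 (SE 1.02) for deletion in liver and -0.41 (SE 1.02) for wild-type HCC against liver.

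Klrb1f, the receptor of Clec2i, was above background on all 12 arrays and was on average lower in tumour. It read -1.87, -2.78 and -3.70 in wild-type liver and -2.96, -3.21 and -3.90 in wild-type HCC, with overlap, a difference of -0.57 (SE 0.54, limma unadjusted p = 0.307). In survivin-deleted liver it read -2.07, -3.44 and -3.20 and in survivin-deleted HCC -2.47, -3.04 and -3.68. Klre1 averaged -4.28 ± 0.79 in wild-type liver, -3.91 ± 0.92 in survivin-deleted liver, -4.08 ± 1.10 in wild-type HCC and -4.24 ± 0.91 in survivin-deleted HCC (SD, n = 3). Its largest difference in a tissue or liver contrast was 0.36 (SE 0.69). For Klrd1, whose SE was 1.02 without a slide term, a difference of the size seen for Klrb1a would have been within 2 SE of 0. With a slide term the SE of Klrd1 was 0.77, and such a difference would have been beyond 2 SE. In wild-type HCC against liver the slide term left the differences as they were. It lowered the SE to 0.31 for Klrb1f (limma unadjusted p = 0.0940, adjusted p = 0.745) and to 0.42 for Klre1.

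**Figure D3:**
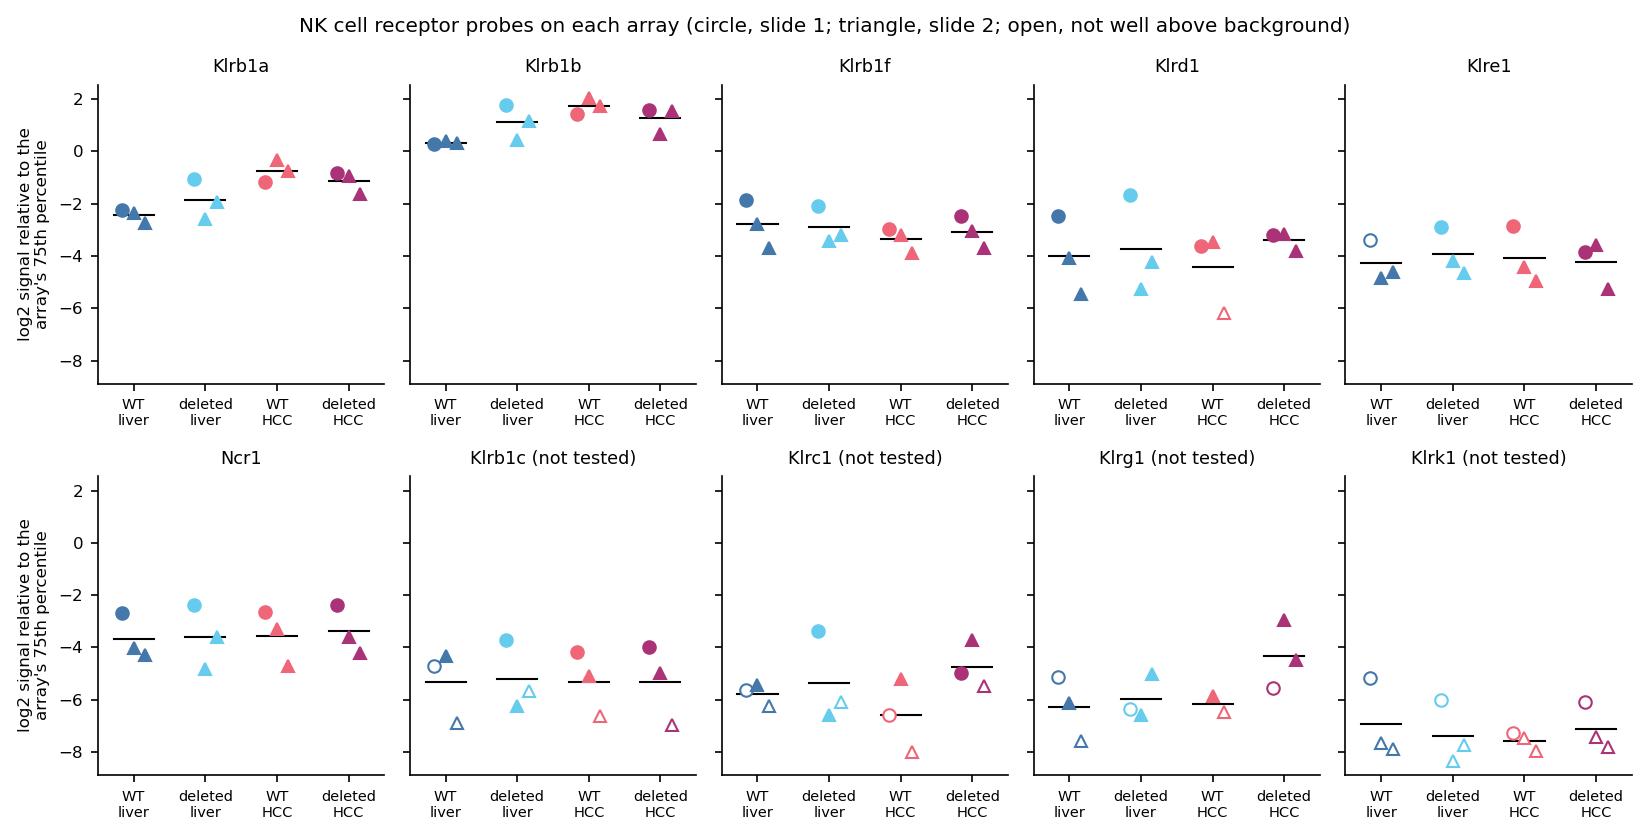
Log2 signal relative to the array's 75th percentile for 1 probe of each of the 10 receptors on the 12 arrays, with circles for slide 1, triangles for slide 2, open symbols for readings not well above background and bars for group means. Klrb1b is the brightest and Klrk1 is open on all 12 arrays; slide 1 lies high for Ncr1 in each group.

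The 4 receptors left out of the tests were at or near background. Klrk1 (NKG2D) was not well above background on any of 12 arrays. Klrb1c (NK1.1) was well above background on 7 arrays with 1 probe and on 2 with the other, Klrc1 (NKG2A) on 6 and 3, and Klrg1 on 6. These readings fell in all 4 groups for the better probe of Klrb1c and of Klrc1. Klrg1 read -5.53, -2.96 and -4.49 in survivin-deleted HCC, the first not well above background, and its 2 highest readings of all arrays were there. In wild-type HCC it read -5.86 and -6.47, the second not well above background, and its spot on replicate 1 was flagged as an outlier, so that group has 2 readings. In wild-type liver it read -5.12, -6.11 and -7.58, and in survivin-deleted liver -6.35, -6.60 and -5.02. The better Klrc1 probe read -5.00, -3.72 and -5.48 in survivin-deleted HCC and -6.59, -5.19 and -8.00 in wild-type HCC, where only replicate 2 was well above background, a difference of 1.86, or 0.79 with the 2 arrays exchanged. That probe was designed on a transcript with no current symbol in the reference used; the other Klrc1 probe, on a RefSeq transcript of the gene, averaged -6.46 and -6.50, a difference of 0.05, and was well above background on 1 array of each of these groups.

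Across arrays the measured receptors fell into different patterns. After the mean of each slide was subtracted, Klrb1a and Klrb1b had a Pearson r of 0.83 (Spearman's rho 0.81, 12 arrays; r 0.73 without the 2 arrays farthest from the Klrb1a median). Klrd1 had r = 0.75 with Ncr1 and 0.71 with Klrb1f, but 0.23 with Klrb1a and 0.09 with Klrb1b. Klrd1 also ran with Eomes, a transcription factor of NK cells (r = 0.82), with Il2rb, a receptor chain for growth cytokines (r = 0.80), and with the T cell gene Cd3g (r = 0.88). Klrb1a had r = 0.42 with Eomes and 0.17 with Cd3g. These are descriptions over arrays that share slide and group, and T cells can carry Klrd1 too.

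By the mean of the 6 measured members over the 12 arrays, slide means removed, the most alike genes were Cd200 (r = 0.93), Rgnef (0.92), Ch25h (0.90), Inpp4b (0.90), Mal (0.90), Klra23 (0.89), Tubb2b (0.88) and Olfr1372-ps1 (0.88). Klra23 is a Ly49 receptor of NK cells. Klrd1 has the widest spread of the 6 and so weighs most in that mean.

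The promoters of Klrb1a, Klrb1b and Klrb1f are shown because the first 2 followed each other across arrays and the last did not. They are the 250 bases before the first annotated start of each gene, from RefSeq on GRCm38.p6, a later build than that of the probes: chr6:128622935-128623184 (minus strand), chr6:128826316-128826565 (minus strand) and chr6:129045651-129045900 (plus strand). The table held promoters of 8 of the 10 members. Capitals mark the longest run of letters that all 3 share, 13 bases.
Klrb1a: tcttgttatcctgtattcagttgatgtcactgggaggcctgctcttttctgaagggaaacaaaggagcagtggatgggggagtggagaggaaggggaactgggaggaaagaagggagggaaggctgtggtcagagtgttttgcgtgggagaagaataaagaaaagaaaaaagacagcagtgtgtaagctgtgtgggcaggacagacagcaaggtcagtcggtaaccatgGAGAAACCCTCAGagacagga
Klrb1b: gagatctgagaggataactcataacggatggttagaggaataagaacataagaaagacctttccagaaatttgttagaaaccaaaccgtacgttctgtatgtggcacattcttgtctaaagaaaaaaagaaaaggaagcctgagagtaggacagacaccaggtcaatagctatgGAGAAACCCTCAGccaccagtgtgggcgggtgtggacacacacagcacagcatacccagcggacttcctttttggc
Klrb1f: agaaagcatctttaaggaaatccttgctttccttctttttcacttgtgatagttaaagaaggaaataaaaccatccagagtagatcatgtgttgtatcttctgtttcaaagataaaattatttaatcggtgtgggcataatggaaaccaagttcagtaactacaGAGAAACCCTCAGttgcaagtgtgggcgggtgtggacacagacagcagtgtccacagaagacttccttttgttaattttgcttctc
The run GAGAAACCCTCAG ends 8 bases before the annotated start in Klrb1a, 63 before it in Klrb1b and 73 before it in Klrb1f. On either strand it was found in 3 of 27025 promoters of that length, 0.0111%, which were these 3. It was found by comparing these promoters, so that count is a description, and it was present in Klrb1f, whose signal did not follow Klrb1a or Klrb1b. The letters TGTGGT, a core of RUNX sites, were found on either strand in 6 of the 8 members (Klrb1a, Klrb1c, Klrc1, Klrk1, Klre1 and Ncr1), and in 14.2% of all promoters. AGGTGT, a core of T-box sites, and TTCNNNGAA, the spaced site of STAT factors, were in 0 of the 8, against 3241 and 1940 of the 27025 promoters. The motifs were picked after the sequences had been seen, and a match is a description of letters.

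The partners of the receptors were read from lists of ligands, adaptors and other NK genes. Of 15 ligands tested, 0 passed the adjusted threshold in any contrast. In wild-type HCC against wild-type liver 3 were higher and 12 lower, with a median of -0.29 against 0.05 over all genes. Clec2d, the ligand of Klrb1b, averaged -0.06 ± 0.30 in wild-type liver and -0.66 ± 0.37 in wild-type HCC (SD, n = 3), a difference of -0.61 (SE 0.40, limma adjusted p = 1.00) opposite in sign to that of its receptor. H2-T23, the Qa-1 gene, was bright and even, with group means of 4.44 to 4.63. Cdh4, a cadherin, was lower by -1.02 (SE 0.34, limma unadjusted p = 0.0123), with separated arrays, as for 2.33% of all genes.

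H60a, a ligand of Klrk1, was the ligand of smallest p for deletion in HCC. It was picked for that p among 15 ligands, from a list chosen with earlier results known, so the p below is a description. It read -2.65, -3.27 and -3.94 in wild-type HCC and -1.99, -1.37 and -2.43 in survivin-deleted HCC. Every deleted tumour array was above every wild-type one, as for 2.81% of all genes, by 1.35 on average (SE 0.53, limma unadjusted p = 0.0265, adjusted p = 1.00). With the deleted liver at -4.59, -2.53 and -3.04, the deleted tumours were also above all liver arrays of either genotype. Its receptor Klrk1 was at background, so the pair could not be compared. Raet1a was lower by -0.74 (SE 0.44) and Raet1e by -0.92 (SE 0.54) in the same contrast; probes for the Raet1 genes may not tell these near-identical copies apart.

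Of 11 adaptors and proximal signalling genes, 0 passed the adjusted threshold in any contrast. Tyrobp (DAP12), which activating receptors use, averaged 2.57 ± 0.20 in wild-type liver, 2.31 ± 0.19 in survivin-deleted liver, 2.17 ± 0.34 in wild-type HCC and 2.73 ± 0.88 in survivin-deleted HCC (SD, n = 3). Hcst (DAP10), the adaptor of Klrk1, was lower in wild-type HCC than in wild-type liver by -0.74 (SE 0.56). Both adaptors were thus lower on average in wild-type HCC than in wild-type liver, within their own spread. Of the 11 genes, 6 were lower and 5 higher in that contrast, with a median of -0.35 against 0.05 over all genes. Any link of these adaptors to Klrb1a or Klrb1b was not tested.

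Of 14 other genes of the NK receptor complex tested, 12 were higher in wild-type HCC than in wild-type liver and 2 lower, with a median of 0.40 against 0.05 over all genes; 0 passed the adjusted threshold and 0 had an unadjusted p under 0.05. Klra5 read -2.94, -3.22 and -3.14 in wild-type liver and -2.15, -2.33 and -2.41 in wild-type HCC, and its groups were separated (difference 0.80, SE 0.53). It was 1 of 14 separated upward, where 4.96% of all genes were. The median of the list was 0.59 with the 2 arrays exchanged and 0.42 on slide 2. These Ly49 genes are near-identical to each other, and their probes may share signal.

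The genes by which NK cells kill showed no common direction between wild-type tumour and liver. Of 16 cytotoxic effectors and cytokines, 5 were higher and 11 lower in wild-type HCC than in wild-type liver, with a median of -0.22 that turned to 0.18 with the 2 arrays exchanged. Among them Srgn, the proteoglycan of cytotoxic granules, was lower by -0.84 (SE 0.35, limma unadjusted p = 0.0364, adjusted p = 1.00) and Ccl3 higher by 1.06 (SE 0.77). Among 16 other NK surface receptors 9 were higher and 7 lower, with a median of 0.04. Itga2 (CD49b), a marker of conventional NK cells, was higher by 1.37 (SE 0.70, limma unadjusted p = 0.0785) with separated arrays. It was the 1 gene of that list separated upward, and another 1 was separated downward, where 4.96% and 2.33% of all genes were.

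Markers of other blood cells were not on the whole higher in wild-type tumour, and those of macrophages were lower. All 16 T cell markers were measured, with 7 higher in wild-type HCC and 9 lower and a median of -0.16 that turned to 0.12 with the 2 arrays exchanged, and their mean level spanned -3.04 to -1.79 in wild-type liver and -3.28 to -1.85 in wild-type HCC. The mean of the 8 pan-leukocyte markers spanned -0.04 to 1.40 and -0.62 to 0.88, with 0 of 8 higher in wild-type HCC. The mean of the 9 Kupffer cell and macrophage markers measured spanned 1.43 to 1.89 and 0.17 to 1.65, also with 0 of 9 higher and a median of -0.71. Clec4f, a defining Kupffer cell gene, averaged 3.17 ± 0.54 in wild-type liver and 1.70 ± 1.82 in wild-type HCC (SD, n = 3), and over the 12 arrays, slide means removed, it had r = -0.90 with Klrb1a and -0.53 with Klrb1b. The part of Kupffer cell content in the Klrb1a and Klrb1b differences was not tested. B cell and neutrophil and monocyte markers had medians of -0.10 and -0.80, NK transcription factors -0.04, and the 10 hepatocyte markers -0.05 (with the 2 arrays exchanged, 0.02 for B cells and 0.13 for NK transcription factors); 0 genes of these lists passed the adjusted threshold.

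In survivin-deleted HCC against wild-type HCC, in contrast, the T cell markers were higher in 15 of 16 genes (median 1.00), the cytotoxic genes in 15 of 16 (median 0.92), the pan-leukocyte markers in 8 of 8 (0.63), the other NK surface receptors in 13 of 16 (0.40), the adaptors in 9 of 11 (0.56) and the B cell markers in 6 of 9 (0.62), while the 6 measured members had 3 higher and 3 lower and a median of 0.00, against -0.02 over all genes. Of the 14 other genes of the NK receptor complex, 11 were higher and 3 lower, with a median of 0.21, or 0.09 with the 2 arrays exchanged. The Kupffer cell and macrophage markers were higher in 7 of 9 genes (0.24) and the neutrophil and monocyte markers in 7 of 9 (0.14). NK transcription factors and growth cytokines were higher in 6 of 11 (0.08). With the 2 arrays exchanged the T cell median was 0.77 and the cytotoxic median 0.52. The mean level of the T cell markers spanned -1.97 to -1.09 in survivin-deleted HCC. On slide 1 it was not higher with deletion, at -1.97 against -1.85. Nor were the slide 1 means of the pan-leukocyte markers (0.82 against 0.88) and the adaptors (0.52 against 0.82). The same held for the other NK surface receptors (-1.29 against -1.23) and the B cell markers (-2.06 against -1.95). The cytotoxic mean was higher there, at -0.84 against -0.98. The members' values are not a test of this difference, since the set was proposed with that contrast known.

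**Figure D4:**
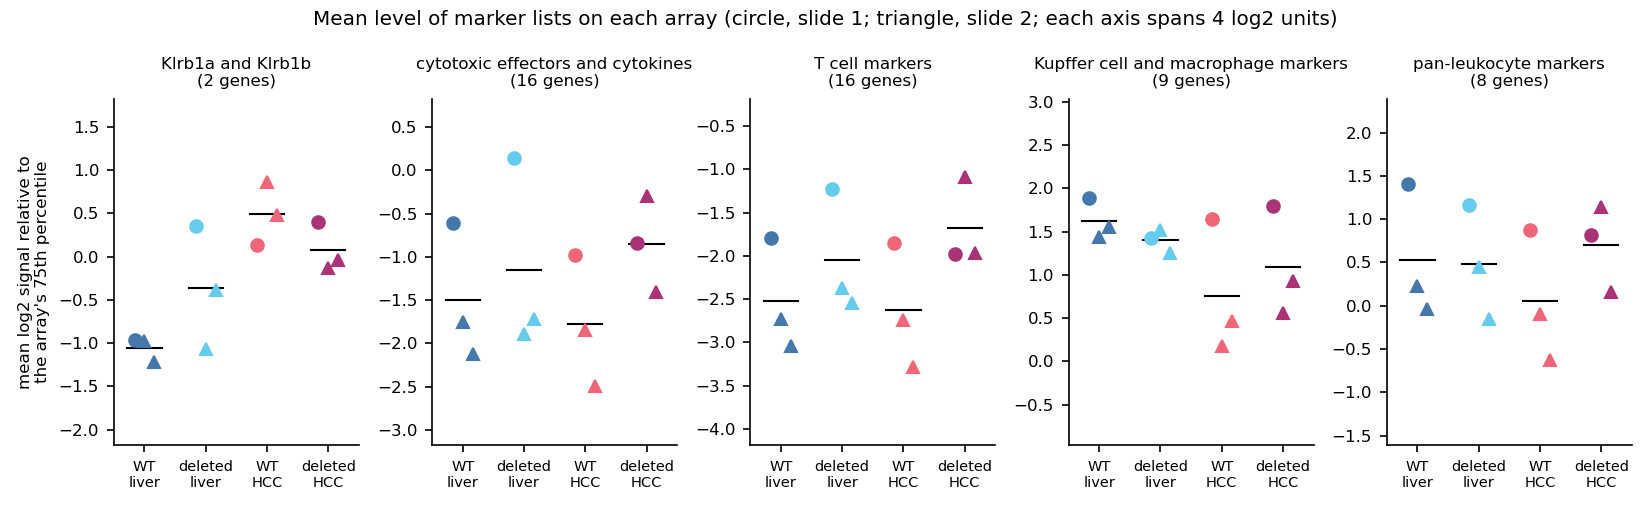
Mean log2 signal relative to the array's 75th percentile of Klrb1a and Klrb1b and of 4 lists on each array, with circles for slide 1, triangles for slide 2 and bars for group means; each axis spans 4 log2 units. Klrb1a and Klrb1b lie at -1.21 to -0.96 in wild-type liver and 0.13 to 0.86 in wild-type HCC, whereas the T cell list overlaps between those groups and the Kupffer cell list is lower on slide 2 in HCC.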

How the data were processed

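The starting values were scanner files of 12 one-colour Agilent arrays with 62976 spots each. Their processed intensity per spot came from the authors' run of Agilent Feature Extraction 10.7, a version given in the submitters' processing notes. The authors also deposited log2 values with the 75th percentile of each array at 0, used only as an alternative.

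Intensities were put on the log2 scale and the 75th percentile over non-control spots of the array was subtracted. A probe was kept if flagged well above background throughout at least 1 group, with a usable spot on every array (38714 probes). The brightest probe stood for each of 26290 genes. limma 3.58.1 in R 4.3.3 fitted 4 group means over 12 arrays, with 8 residual degrees of freedom and Benjamini-Hochberg adjustment over all genes at 0.05, and was tested on simulated data. Exact permutation tests used scipy 1.17.1. Replicate numbers pair arrays through the slide: 18 of 18 same-number correlations of deviations were over 0.1 (0.28 to 0.74), and within slide 2 they were 2 of 6. The members, lists and motifs were chosen with earlier results of these data known. All members are named, with up to 4 genes per list of smallest unadjusted p in a contrast, ligands, adaptors and defining markers, and the 8 genes most alike; Eomes, Il2rb and Cd3g were picked for the correlations after their values were seen. RefSeq accessions gave the current symbol of all 10 members. Alternatives covered normalization, background, filter, probe choice, slide, replicate number, the arrays in doubt and leaving out each array.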

Additional observations from a re-analysis of the deposited data

How the results depend on the processing

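In wild-type HCC against wild-type liver, Klrb1a was higher by 1.47 to 2.03 and Klrb1b by 1.24 to 1.87 under the 26 alternatives run, with separated groups in each; the limma adjusted p was 0.30 to 1.00 for both, so neither was called under any of them. Klrb1b stayed separated in deleted against wild-type liver in each, at 0.46 to 1.14. Leaving out arrays or adding a block term cannot undo a separation already present. In those alternatives, which are most of the 26, the separation of both genes was thus fixed in advance and adds nothing. Replicate numbers are balanced over the groups, so the replicate number as a block cannot change a difference. The median difference of the measured members was thus 0.16 in wild-type HCC against liver and 0.32 for deletion in liver, as in the main fit. That block changed no call. Of 30 differences of a member in a contrast, 19 changed sign under at least 1 alternative; none was called.

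The median difference of deletion changes between the tissues was -0.21 and became 0.82 without the 2 arrays in doubt. The count of members with separated groups was 3 over 4 contrasts. It became 7 on slide 2 only, 7 without the 2 arrays and 7 without them with a slide term (chosen after seeing the data). Fewer arrays make separation easier. Of the 26290 genes, 539 to 1803 were separated per contrast and direction as labelled. That became 4912 to 7245 on slide 2 only and 2397 to 5014 without the 2 arrays. The rise is therefore not read as a result about the members. Leaving out each array in turn gave 3 to 5, and 5 without survivin-deleted liver replicate 1, wild-type HCC replicate 1 or survivin-deleted HCC replicate 3. With 3 arrays a group, signals near background and 1 spot a probe, differences in Klrd1, Klre1 and Ncr1 below their SE could not be resolved. Groups of 3 were not searched for outlying arrays.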
